A study of Mus musculus with 12 samples.

Results

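The genes described here are 58 genes spread along mouse chromosome 8, and all 58 symbols were found among the 31641 gene symbols of the count table. They were not chosen blind: chromosome 8 was picked because its genes were shifted in 1 wild-type line, WT-2, so every value that sets WT-2 against the other lines is given below as a description, with no test. Of the 58 genes, 56 passed the filter on low counts. Mt2, a metallothionein, had at most 0.117 CPM (counts scaled to a common library size, with TMM normalization) in any library, and Galnt2, which starts O-glycosylation of proteins, had at most 0.181 CPM, and both were left out of the fit. The 56 genes are not all the genes of the chromosome, of which 818 passed the same filter.

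RNA-seq was done on 4 lines of C57BL/6 mouse embryonic stem cells derived from blastocysts, grown with serum and LIF (a cytokine that keeps the cells undifferentiated) over a layer of mouse embryonic fibroblasts. WT-1 and WT-2 are wild type. Mut-1 and Mut-2 have the genotype label Tin2 S341X, a notation for a stop in place of a serine in TIN2, the telomere protein of the shelterin complex that Tinf2 encodes. RNA was taken from stem cells still on their fibroblast feeders, each line gave 3 libraries that the design text calls technical replicates, and all p-values below therefore measure only the spread between libraries of a line, not between independent lines of a genotype.

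Embryonic stem cells are diploid when derived, and chromosome 8 is known as one that mouse embryonic stem cells tend to gain in long culture. A gene's mRNA level depends on its copy number as well as on its own regulation, and many proteins work in complexes whose other subunits are encoded on other chromosomes. No DNA was measured in these libraries, so chromosome number is not known for any line. The genes range over growth factor signalling, the cell cycle, DNA repair and chromatin, transcription, RNA processing, stress responses, the proteasome and nuclear pore, and the extracellular matrix.

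Library totals ran from 14766477 to 17891894 counts. WT-1 replicates 1 and 2 were close to a repeat of 1 library, with a chi-square of their counts of 1.66 per degree of freedom, while pairs of libraries from the same line otherwise gave 12.01 to 42.5. Both are printed. Tinf2, the altered gene, stood between 57.6 and 69.2 CPM in the 6 wild-type libraries and between 19.7 and 30.1 CPM in the 6 mutant libraries. The 10 pluripotency markers summed to 5601 to 7242 CPM, while markers of primitive endoderm, neural, blood and mesoderm cells summed to at most 400.1, 108, 57.8 and 30.2 CPM in any library. All 24 feeder fibroblast markers found in the table were detected, and their share of the counts was 0.452% to 0.591% in WT-1, 0.426% to 0.591% in WT-2, 0.427% to 1.11% in Mut-1 and 0.624% to 0.987% in Mut-2. In WT-2 against the mean of the other 3 lines, 1 of these 24 markers was above 0, and their median log2 fold change was -0.39.

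In WT-2 the 56 genes had a median log2 fold change of 0.21 against the mean of the other 3 lines, a 1.15-fold higher level, and 50 of the 56 were above 0. The size was near that of the whole chromosome: the other 762 chromosome 8 genes tested also had a median of 0.21, and 594 of them were above 0. Over all 16533 genes tested the median was 0.00, and 49.8% were above 0. Single genes ran from -0.46 for Csgalnact1 to 0.69 for Wwox, and the median SE was 0.13. In bulk RNA such as this, fewer cells of a type and less RNA per cell cannot be told apart.

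Against each line taken singly, the median of the 56 genes was 0.17 against WT-1 (52 above 0), 0.22 against Mut-1 (48 above 0) and 0.28 against Mut-2 (50 above 0). These 3 comparisons share the WT-2 libraries. After centring each gene over the 4 line means, the median of the 54 genes that averaged 5 CPM or more was 0.04, 0.21 and 0.23 (log2) in WT-2 replicates 1, 2 and 3. In replicate 1, 33 of the 54 genes were above their own mean, against 47 and 49 in replicates 2 and 3. The same median was between -0.06 and 0.00 in WT-1, between -0.12 and -0.05 in Mut-1, and between -0.19 and -0.05 in Mut-2. Over these 54 genes, a low replicate 1 was not particular to WT-2. Replicate 1 was the lowest of the 3 libraries, and replicate 3 the highest, in Mut-1 and Mut-2 as well. In WT-1, replicate 1 was the highest of the 3. Over all chromosome 8 genes of at least 5 CPM, the medians were 0.13, 0.17 and 0.20 in WT-2 replicates 1, 2 and 3. They were -0.08 to -0.07 in the mutant libraries, and replicate 1 was the lowest in neither mutant line. Across all genes tested, WT-2 libraries also deviated from their line mean together with the same-numbered libraries of Mut-1 (r = 0.37, 0.34 and 0.22) and Mut-2 (r = 0.63, 0.34 and 0.11), a description over genes that are not independent.

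**Figure D1:**
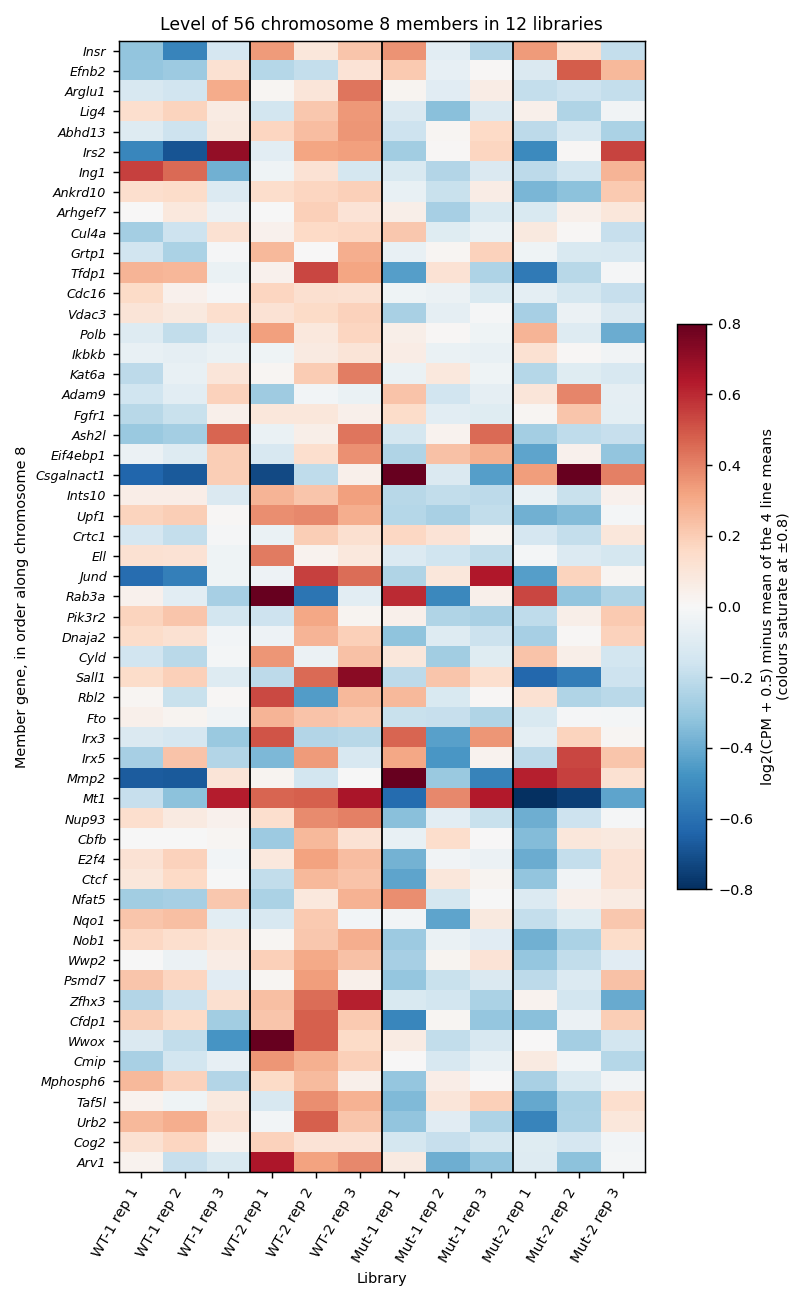
Level of the 56 genes (rows, in order along chromosome 8) in the 12 libraries (columns, grouped by line), as log2(CPM + 0.5) minus the mean of the 4 line means, with red above and blue below it. The 3 WT-2 columns are red in most rows, less so in replicate 1, where 33 genes were above their own mean, and Mmp2 and Csgalnact1 are red instead in the Mut-1 and Mut-2 libraries of high feeder share.

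For 11 of the 56 genes, each of the 3 WT-2 libraries was above each of the 9 other libraries, and for 0 each was below. Over all genes tested 1.57% had this order upwards and 1.34% downwards. Among the other chromosome 8 genes, 75 of 762 had it upwards, and among genes of the other autosomes 150 of 14104. The 11 genes are Abhd13, Ints10, Upf1, Fto, Nup93, Wwp2, Zfhx3, Cfdp1, Wwox, Cmip and Arv1. Without WT-2 replicate 1, which leaves 2 libraries to lie above the 9, the count was 22, with 3.08% of all genes in that order.

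The 56 genes lie from Insr (3122061 to 3279617, GRCm38) near the proximal end to Arv1 (124722139 to 124734123) near the distal end. None lies between Eif4ebp1, which ends at 27276674, and Csgalnact1, which starts at 68356781. To place them, 601 chromosome 8 genes of at least 5 CPM were ordered by position: their median was 0.21, and 505 of them (84.0%) were above 0 in WT-2. In bins of 10 Mb, the median over genes was above 0 in all 13 bins, from 0.11 in the bin of 50 to 60 Mb, which holds only 10 genes, to 0.29 in the bin of 90 to 100 Mb with 36 genes. The 3 bins with none of the 58 genes had medians of 0.19 at 30 to 40 Mb, 0.23 at 40 to 50 Mb and 0.11 at 50 to 60 Mb, the lowest of all bins, where 6 of 10 genes were above 0. Split by level, the median was 0.20 over the 201 genes of lowest CPM, 0.22 over the 200 of middle CPM and 0.21 over the 200 of highest CPM. Around these medians, the median absolute deviation of single genes was 0.20 on chromosome 8 and 0.19 over 9682 genes of the autosomes other than 8 and 14.

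**Figure D2:**
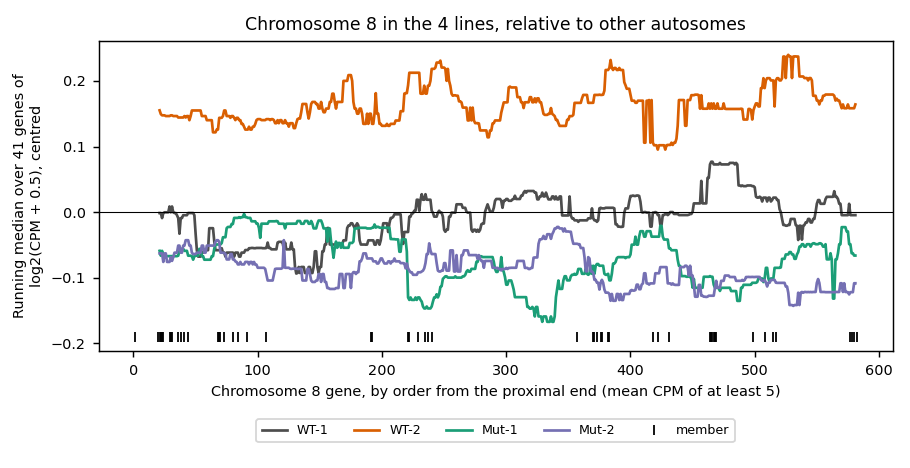
Running median over 41 genes of centred log2(CPM + 0.5), minus the median of other autosomes, against the order of genes along chromosome 8, with 1 line per cell line and ticks for the chosen genes of at least 5 CPM. The WT-2 line stays between 0.10 and 0.24 along the chromosome and above the other 3 lines, whose highest value is 0.08.

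Chromosome 8 was set apart in WT-2 from most other chromosomes. Its median shift relative to the other autosomes was 0.13, 0.17 and 0.20 in the WT-2 libraries, -0.03 to 0.00 in WT-1, and -0.08 to -0.07 in both mutant lines. In WT-2 minus the mean of the other lines this comes to 0.22. Chromosome 14, which carries Tinf2, was at -0.28 in that contrast, with both wild-type lines low and both mutant lines high. All remaining chromosomes lay between -0.03 and 0.04. Each gene was centred over the 4 line means, so a high level in WT-2 by itself puts the other lines below 0 on chromosome 8.

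**Figure D3:**
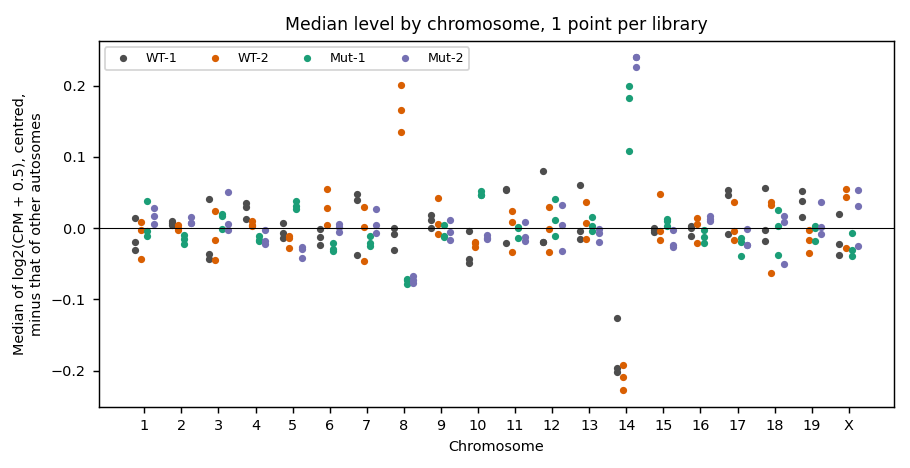
Median over the genes of each chromosome (x axis) of centred log2(CPM + 0.5) minus that of the other autosomes (y axis), with 1 point per library coloured by line. On chromosome 8 the 3 WT-2 points lie at 0.13 to 0.20 and all others at or below 0.00, while chromosome 14 separates the 6 wild-type from the 6 mutant libraries. Because of the centring, a high value in 1 line lowers the values of the others.

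In 2 places, a pair of the genes starts back to back on opposite strands, so that both transcripts begin at the edges of a short shared stretch. They are shown because the 2 genes of a pair have promoter sequence in common. Lig4 (minus strand, 9969049 to 9977686) seals DNA breaks in end joining, and Abhd13 (plus strand, 9977707 to 9992155) encodes an enzyme of the alpha/beta hydrolase fold. Taf5l (minus strand, 123996318 to 124021397) is a subunit of a histone acetyltransferase complex, and Urb2 (plus strand, 124021508 to 124048505) acts in ribosome assembly. The stretch between the starts is printed 5′ to 3′ on the plus strand from RefSeq sequence (GRCm38.p6), up to the end of the promoter window used, with capitals for CCGGAAG, a core bound by ETS transcription factors.
Lig4 to Abhd13, chr8:9977687-9977706: acgggctaccgtagcatgaa
Taf5l to Urb2, chr8:124021398-124021496: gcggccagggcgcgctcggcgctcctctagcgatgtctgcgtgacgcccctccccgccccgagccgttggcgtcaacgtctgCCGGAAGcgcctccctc
The first stretch of 20 bases holds no CCGGAAG on either strand, and the second, 99 bases long, holds 1. In WT-2 the log2 fold changes were 0.20 (SE 0.14) for Lig4 and 0.35 (SE 0.10) for Abhd13, and 0.24 (SE 0.14) for Taf5l and 0.31 (SE 0.13) for Urb2. For Urb2 the WT-2 mean of 95.4 CPM was near the 94.3 CPM of WT-1, with both mutant lines lower. RefSeq promoter windows (250 bases before to 50 after a start) were matched for 40 of the 58 genes, and 11 of the 40 held CCGGAAG on either strand. These were the windows of Lig4, Grtp1, Cdc16, Pik3r2, Nfat5, Wwp2, Cfdp1, Taf5l, Urb2, Cog2 and Arv1. The site in the stretch between Taf5l and Urb2 lies in both of their windows and counts for each. Of all 27025 windows, of genes expressed here or not, 9.12% held it. The chosen genes were mostly expressed, so the shares are not matched, and no test was made.

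In growth factor and insulin signalling, 8 of 9 genes were above 0 in WT-2, with a median log2 fold change of 0.17. Values per library are given in the order of replicates 1, 2 and 3. Cmip, an adaptor protein, had CPM values of 35.0, 37.9 and 40.1 in WT-1, 53.7, 51.4 and 48.1 in WT-2, 42.1, 38.4 and 40.3 in Mut-1, and 44.2, 41.3 and 35.9 in Mut-2. All 3 WT-2 libraries were above the other 9, and the log2 fold change was 0.37 (SE 0.09). Eif4ebp1, which binds eIF4E and holds back translation until mTOR phosphorylates it, had CPM values of 354, 340 and 418 in WT-1, 334, 401 and 471 in WT-2, 309, 430.4 and 445 in Mut-1, and 273, 374 and 293 in Mut-2. Fgfr1, a receptor for fibroblast growth factors, had CPM values of 119.5, 123 and 144 in WT-1, 149, 148 and 143 in WT-2, 155, 132 and 131 in Mut-1, and 141, 163 and 132 in Mut-2. Libraries of each line spread widely for Eif4ebp1, and the WT-2 values of Fgfr1 fell inside the range of Mut-1 and Mut-2. The log2 fold changes in WT-2 were 0.17 (SE 0.14) and 0.09 (SE 0.10).

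Arhgef7 had CPM values of 58.8, 62.3 and 56.8 in WT-1, 58.6, 66.98 and 63.5 in WT-2, 60.6, 48.7 and 53.9 in Mut-1, and 53.98, 60.4 and 62.4 in Mut-2, and its lines overlapped. Efnb2, the ligand ephrin-B2, had CPM values of 19.9, 20.1 and 27.01 in WT-1, 21.1, 21.6 and 26.7 in WT-2, 28.6, 23.6 and 24.9 in Mut-1, and 22.8, 34.8 and 29.8 in Mut-2. Its WT-2 libraries lay within the range of WT-1, and its log2 fold change was -0.15 (SE 0.15), the only one below 0 in the group. The insulin receptor gene Insr was at 0.28 (SE 0.15), the receptor substrate Irs2 at 0.20 (SE 0.29), Grtp1, a protein with a Rab-GAP domain, at 0.25 (SE 0.10) and the PI3K regulatory subunit gene Pik3r2 at 0.08 (SE 0.13). Among 21 partners of this pathway on other chromosomes, such as Eif4e at 0.09 and Eif4ebp2 at 0.09, 15 were above 0 and the median was 0.09.

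**Figure D4:**
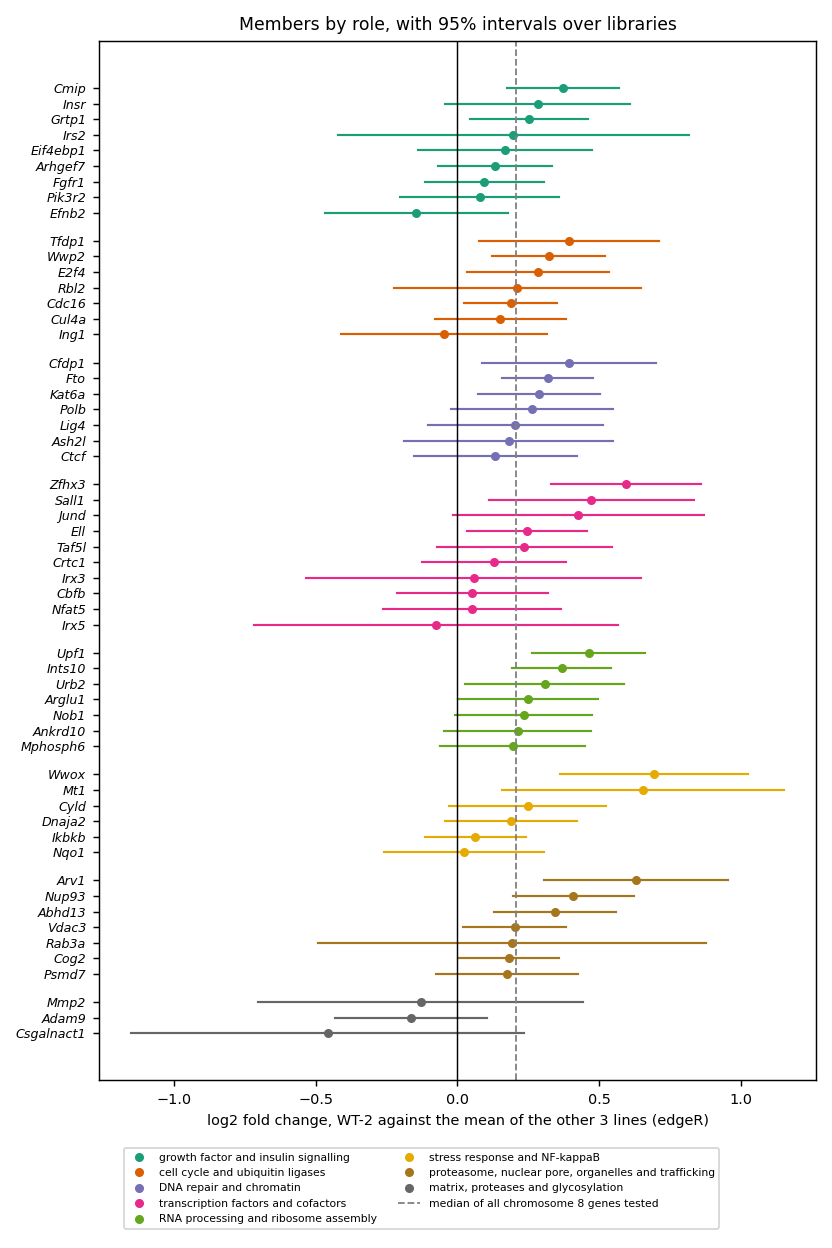
Log2 fold change of WT-2 against the mean of the other 3 lines (x axis) for the 56 genes (y axis), coloured by role, with 95% intervals over libraries from edgeR, a solid line at 0 and a dashed line at 0.21, the median of all chromosome 8 genes tested. Points gather around the dashed line in 7 of the 8 roles, and all 3 genes of the matrix group lie below 0.

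Of 7 genes for the cell cycle and ubiquitin ligases, 6 were above 0, with a median of 0.21. E2f4 and Tfdp1 encode a transcription factor and its dimer partner that control entry into the cell cycle. Tfdp1 had CPM values of 247, 246 and 197 in WT-1, 209.9, 296 and 255 in WT-2, 150.4, 222 and 172 in Mut-1, and 138, 175 and 203 in Mut-2. E2f4 had CPM values of 175, 184 and 159 in WT-1, 171, 202 and 192 in WT-2, 124, 158 and 156 in Mut-1, and 123, 141 and 175 in Mut-2. WT-2 replicates 2 and 3 were the highest of the 12 libraries for both genes, and WT-2 replicate 1 lay inside the range of WT-1. The log2 fold changes in WT-2 were 0.39 (SE 0.15) and 0.28 (SE 0.12), and that of E2f4 was 0.16 without the 3 libraries in which feeder markers were most abundant.

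Wwp2, a ubiquitin ligase, had CPM values of 99.7, 96.8 and 104 in WT-1, 114, 124 and 118 in WT-2, 83.1, 102 and 108 in Mut-1, and 80.7, 87.4 and 93.9 in Mut-2. Its WT-2 libraries were above the other 9, with a log2 fold change of 0.32 (SE 0.09). The pocket protein gene Rbl2 was at 0.21 (SE 0.20), Cdc16 of the anaphase-promoting complex at 0.19 (SE 0.08), the ligase scaffold Cul4a at 0.15 (SE 0.11) and Ing1, a chromatin reader tied to p53, at -0.05 (SE 0.17). On other chromosomes, 7 of 14 partners of E2F proteins were above 0 with a median of 0.00, and 8 of 12 other subunits and activators of the anaphase-promoting complex with a median of 0.04.

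All 7 genes of DNA repair and chromatin were above 0 in WT-2, with a median of 0.26. Fto, an RNA demethylase, had CPM values of 65.4, 64.7 and 62.4 in WT-1, 76.9, 74.7 and 73.8 in WT-2, 56.2, 55.96 and 53.9 in Mut-1, and 58.6, 63.3 and 62.9 in Mut-2. Cfdp1, a chromatin protein, had CPM values of 155, 151 and 112 in WT-1, 158, 188 and 156 in WT-2, 94.1, 137 and 109 in Mut-1, and 107, 131 and 155 in Mut-2. WT-2 was above the other 9 libraries for both, by a clear margin for Fto, while for Cfdp1 the lowest WT-2 library and the highest WT-1 library stood at 156 and 155 CPM. The log2 fold changes were 0.32 (SE 0.07) and 0.39 (SE 0.14).

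Ctcf, the insulator protein that anchors chromatin loops, had CPM values of 163, 171 and 153 in WT-1, 133, 183 and 179.8 in WT-2, 114, 163 and 156 in Mut-1, and 123, 150.2 and 166 in Mut-2. WT-2 replicate 1 was lower than all WT-1 libraries, and the log2 fold change was 0.13 (SE 0.13), or 0.28 without that library. Ash2l, a subunit of the enzymes that methylate histone H3 lysine 4, had CPM values of 325, 331 and 552 in WT-1, 385, 412 and 538 in WT-2, 363, 408 and 546 in Mut-1, and 330.2, 347 and 351 in Mut-2. In all 4 lines its replicate 3 was the highest, and the log2 fold change was 0.18 (SE 0.17). The repair polymerase Polb was at 0.26 (SE 0.13), the acetyltransferase Kat6a at 0.29 (SE 0.10) and Lig4 at 0.20 (SE 0.14). Of 11 other subunits of H3K4 methyltransferase complexes on other chromosomes, 3 were above 0, with a median of -0.09, among them Wdr5 at -0.04. Of 13 genes of end joining and base excision repair there, 9 were above 0, with a median of 0.11.

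For transcription factors and cofactors, 9 of 10 were above 0, with a median of 0.18. Zfhx3, a large homeodomain protein, had CPM values of 23.1, 24.2 and 29.8 in WT-1, 32.3, 37.3 and 42.2 in WT-2, 24.99, 24.5 and 22.7 in Mut-1, and 27.8, 24.5 and 20.5 in Mut-2. All WT-2 libraries were above the other 9, and the log2 fold change of 0.60 (SE 0.12) was the highest in the group. Sall1, a zinc finger protein expressed in stem cells, had CPM values of 76.6, 79.01 and 64.4 in WT-1, 59.8, 94.8 and 115 in WT-2, 59.9, 80.9 and 76.1 in Mut-1, and 44.7, 47.1 and 61.5 in Mut-2. WT-2 replicate 1 was among the low libraries and replicates 2 and 3 were the highest of the 12, so the log2 fold change of 0.47 (SE 0.17) was 0.26 without WT-2 replicate 3 and 0.70 without replicate 1.

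Taf5l had CPM values of 111, 106 and 115 in WT-1, 98.99, 141 and 132 in WT-2, 84.7, 116 and 124 in Mut-1, and 81.5, 90.99 and 119 in Mut-2. Cbfb, the partner of RUNX factors, had CPM values of 99.2, 99.4 and 101 in WT-1, 81.0, 119 and 108 in WT-2, 95.6, 109 and 99.6 in Mut-1, and 77.96, 106 and 105 in Mut-2. For both, WT-2 replicate 1 was lower than each WT-1 library and replicates 2 and 3 were above each of them. Their log2 fold changes were 0.24 (SE 0.14) and 0.05 (SE 0.12). Without WT-2 replicate 1 they were 0.38 and 0.20, and that of Taf5l was 0.09 without the 3 libraries of highest feeder share. Jund, a subunit of AP-1 (SE 0.21, log2 fold change 0.43), shares 52.6% of its exon bases with a gene on the opposite strand, so its counts are uncertain. The elongation factor Ell was at 0.25 (SE 0.10), the CREB coactivator Crtc1 at 0.13 (SE 0.12) and the osmotic stress factor Nfat5 at 0.05 (SE 0.15). Irx3 and Irx5, homeobox genes of embryonic patterning, stood at means of 2.38 and 2.06 CPM with log2 fold changes of 0.06 (SE 0.27) and -0.08 (SE 0.30).

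All 7 genes of RNA processing and ribosome assembly were above 0, with a median of 0.25. Upf1, the helicase at the core of nonsense-mediated decay, had CPM values of 177, 179.6 and 158 in WT-1, 203, 204 and 191 in WT-2, 134, 131 and 136 in Mut-1, and 119.7, 123 and 154 in Mut-2. Ints10, a subunit of the Integrator complex, had CPM values of 76.6, 76.5 and 67.9 in WT-1, 89.1, 86.0 and 92.7 in WT-2, 63.2, 64.1 and 63.8 in Mut-1, and 71.03, 65.1 and 75.6 in Mut-2. Both genes had all WT-2 libraries above the other 9, and for Upf1 each WT-1 library was in turn above each mutant library. The log2 fold changes in WT-2 were 0.46 (SE 0.09) and 0.37 (SE 0.08).

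Arglu1, a splicing coactivator, had CPM values of 159, 157 and 214 in WT-1, 176, 187 and 235 in WT-2, 177, 164 and 181 in Mut-1, and 152, 155 and 153 in Mut-2. Ankrd10, an ankyrin repeat protein, had CPM values of 132, 134 and 112 in WT-1, 133, 136 and 138 in WT-2, 116, 107 and 126 in Mut-1, and 93.5, 96.1 and 139 in Mut-2. Lines overlapped for both, with log2 fold changes of 0.25 (SE 0.11) and 0.21 (SE 0.12), and that of Arglu1 was 0.12 without WT-2 replicate 3. Nob1, which trims the small ribosomal subunit's RNA, was at 0.23 (SE 0.11), Urb2 at 0.31 (SE 0.13) and the exosome cofactor Mphosph6 at 0.20 (SE 0.12). On other chromosomes, 7 of 8 genes of nonsense-mediated decay were above 0 with a median of 0.15, among them Smg1 and Smg5 at 0.15 and 0.14. Of 10 Integrator subunits there, 6 were above 0 with a median of 0.09.

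All 6 stress response and NF-kappaB genes tested were above 0, with a median of 0.22. Wwox, an oxidoreductase with WW domains, had CPM values of 10.9, 10.2 and 8.404 in WT-1, 21.4, 16.7 and 13.2 in WT-2, 12.4, 10.3 and 10.8 in Mut-1, and 11.9, 9.70 and 10.7 in Mut-2. WT-2 was above the other 9 libraries, but its 3 values differ more among themselves than those of any other line, and the log2 fold change of 0.69 (SE 0.15) was 0.51 without replicate 1 and 0.85 without replicate 3. Mt1, a metallothionein that binds zinc, had CPM values of 328, 298 and 579 in WT-1, 517, 520 and 587 in WT-2, 243, 488 and 581 in Mut-1, and 194, 222 and 279 in Mut-2. WT-1 replicate 3 and Mut-1 replicates 2 and 3 reached the level of WT-2 or came near it, and all 3 Mut-2 libraries were low. The log2 fold change in WT-2 was 0.65 (SE 0.23).

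Dnaja2, a co-chaperone of HSP70, had CPM values of 287, 283 and 256 in WT-1, 253, 314 and 297 in WT-2, 208, 242 and 231 in Mut-1, and 216, 261 and 296 in Mut-2. Nqo1, an NRF2-driven quinone reductase, had CPM values of 78.1, 79.3 and 63.1 in WT-1, 61.4, 77.4 and 66.04 in WT-2, 66.02, 49.96 and 70.8 in Mut-1, and 58.7, 62.5 and 77.95 in Mut-2. The lines overlapped for both genes, at log2 fold changes of 0.19 (SE 0.11) and 0.02 (SE 0.13). The NF-kappaB kinase Ikbkb was at 0.06 (SE 0.08), and Cyld, the deubiquitinase that restrains it, at 0.25 (SE 0.13).

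In the group of the proteasome, nuclear pore, organelles and trafficking all 7 genes were above 0, with a median of 0.20. Nup93, of the inner ring of the nuclear pore, had CPM values of 197, 189 and 184 in WT-1, 198, 234 and 238 in WT-2, 143, 169.7 and 159 in Mut-1, and 137, 160.1 and 179 in Mut-2. Arv1, a lipid transport protein of the endoplasmic reticulum, had CPM values of 9.48, 8.11 and 8.52 in WT-1, 14.9, 11.8 and 12.3 in WT-2, 9.803, 6.97 and 7.39 in Mut-1, and 8.64, 7.32 and 9.21 in Mut-2. Abhd13 had CPM values of 30.4, 29.1 and 34.6 in WT-1, 37.0, 38.99 and 41.98 in WT-2, 29.2, 33.2 and 36.8 in Mut-1, and 28.3, 29.98 and 27.4 in Mut-2. In all 3 genes WT-2 was above the other 9 libraries, though for Nup93 WT-2 replicate 1 and WT-1 replicate 1 stood at 197.5 and 197.3 CPM. Their log2 fold changes were 0.41 (SE 0.10), 0.63 (SE 0.15) and 0.35 (SE 0.10).

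Psmd7, of the 19S cap of the proteasome, had CPM values of 234, 226 and 188 in WT-1, 203, 253 and 206 in WT-2, 161, 177 and 184 in Mut-1, and 173, 185 and 235 in Mut-2. Vdac3, a pore of the outer mitochondrial membrane, had CPM values of 176, 173 and 180 in WT-1, 178, 182 and 186 in WT-2, 137, 156 and 162 in Mut-1, and 136, 159 and 151 in Mut-2. WT-2 overlapped WT-1 for both, and for Vdac3 the 6 mutant libraries were all below the 6 wild-type libraries. Their log2 fold changes were 0.18 (SE 0.12) and 0.20 (SE 0.08). Cog2, of the Golgi tethering complex COG, was at 0.18 (SE 0.08) and the vesicle GTPase Rab3a at 0.19 (SE 0.32). Partners encoded elsewhere differed by complex: 11 of 13 nucleoporins of the inner and outer rings and the central channel were above 0 with a median of 0.16, with Nup188 at 0.29 and the channel protein Nup62 at 0.03. Of 17 other 19S subunits 5 were above 0 with a median of -0.09, and of 5 COG subunits 2 with a median of -0.04. Against WT-1 alone, 6 of the 13 nucleoporins were above 0, with a median of -0.01. Their medians were 0.20 against Mut-1 and 0.24 against Mut-2.

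In the matrix group all 3 genes tested were below 0 in WT-2 against the mean of the other 3 lines, with a median of -0.16 and a median SE of 0.27. This sign came from the mutant lines: against WT-1 alone 2 of the 3 genes were above 0, with a median of 0.05, while all 3 were below 0 against Mut-1 (median -0.22) and against Mut-2 (median -0.49). The 24 feeder markers had medians of 0.07, -0.41 and -0.71 in the same 3 comparisons. Mmp2, a gelatinase that fibroblasts secrete, had CPM values of 31.6, 31.4 and 54.2 in WT-1, 51.2, 45.5 and 50.3 in WT-2, 95.6, 40.9 and 34.6 in Mut-1, and 78.1, 73.9 and 54.9 in Mut-2. Csgalnact1, which starts chondroitin sulphate chains, had CPM values of 4.33, 4.202 and 8.07 in WT-1, 4.04, 6.003 and 7.21 in WT-2, 13.98, 6.42 and 5.03 in Mut-1, and 8.93, 13.1 and 9.42 in Mut-2. Adam9, a membrane protease, had CPM values of 97.04, 102 and 123 in WT-1, 88.97, 107 and 105 in WT-2, 127, 97.2 and 103 in Mut-1, and 116, 142 and 103 in Mut-2. Mut-1 replicate 1 and Mut-2 replicates 1 and 2, the 3 libraries of highest feeder share (1.11%, 0.919% and 0.987%), held the 3 highest values of Mmp2. For Csgalnact1 the highest were Mut-1 replicate 1 and Mut-2 replicates 2 and 3, and for Adam9 Mut-2 replicate 2 and Mut-1 replicate 1. In WT-2 the log2 fold changes were -0.13 (SE 0.27) for Mmp2, -0.46 (SE 0.32) for Csgalnact1 and -0.16 (SE 0.12) for Adam9. With the feeder share as a covariate, Mmp2 turned to 0.24 and Csgalnact1 was at -0.12, and without those 3 libraries Mmp2 was at 0.18. The median of all 56 genes was 0.20 with the covariate and 0.19 without those libraries. The feeder shares of WT-2 (0.426% to 0.591%) and Mut-2 (0.624% to 0.987%) do not overlap. The covariate therefore cannot cleanly separate share from line in this contrast either.

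**Figure D5:**
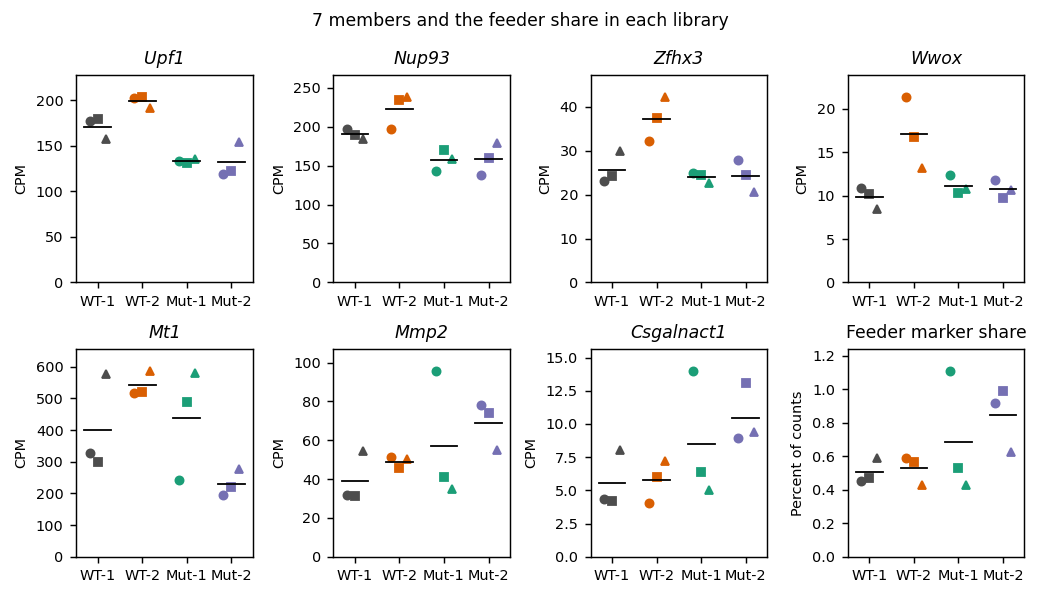
CPM of 7 of the genes and the feeder marker share (percent of counts) in each library, by line, with circles, squares and triangles for replicates 1, 2 and 3 and a bar at the mean of the 3 libraries. Upf1, Nup93, Zfhx3 and Wwox have all WT-2 points above the others, while Mmp2 and Csgalnact1 are highest in Mut-1 replicate 1 and in Mut-2, where the feeder share also reaches 1.11% and 0.987%.

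Levels can be compared between genes only per length. Per kilobase of exon, Mt1 was highest of the 56 genes, at a mean of 323 CPM per kb, followed by Eif4ebp1 at 169 and Cfdp1 at 117, and Irx5 was lowest at 0.659.

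Beyond the lists by role, the partner lists add up to 124 genes tested on other chromosomes, of which 73 were above 0 in WT-2 with a median of 0.04, beside 0.00 over all genes. Leaving out 1 library at a time moved this median between -0.01 and 0.06. The 5 partners that lie on chromosome 8 themselves had a median of 0.18, with 4 above 0. The sign for the 124 genes depended on the line compared. Against WT-1 alone 47 of them were above 0, with a median of -0.04. Against Mut-1 it was 93 with a median of 0.12, and against Mut-2 79 with a median of 0.05. No test of these differences was made, since all of these contrasts hold WT-2, whose shift chose the chromosome.

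The 3 pairs of lines that leave out WT-2 were not used to choose the genes and were tested, in pairs that share lines with each other. WT-1 replicates 1 and 2, close to a repeat of 1 library, entered the fit as separate libraries. The SEs and p-values of the pairs with WT-1 therefore count more libraries than were independent. All lines share 1 estimate of the spread, so the near-repeat also enters the SEs of Mut-2 against Mut-1 and of the WT-2 contrasts. With WT-1 replicates 1 and 2 summed, fewer genes were called over all genes in the pairs with WT-1, and still 0 of the 56. In Mut-1 against WT-1, 0 of the 56 genes passed at an adjusted p under 0.05 (edgeR quasi-likelihood test, Benjamini-Hochberg adjustment over 16533 genes), where 0.327% of all genes passed. In Mut-2 against Mut-1 it was 0 of 56 beside 0.26%, and in Mut-2 against WT-1 0 of 56 beside 0.29%. DESeq2 and limma-voom also called 0 of the genes in each pair. At an unadjusted p under 0.05 edgeR had 6, 2 and 9 of the genes, and over all genes 11.3%, 6.88% and 12%. Those 3 counts of genes moved with single libraries, to between 1 (without WT-1 replicate 2) and 16 (without WT-1 replicate 3), between 0 (without Mut-1 replicate 3) and 7 (without Mut-1 replicate 1), and between 2 (without WT-1 replicate 2) and 12 (without WT-1 replicate 3 or Mut-2 replicate 3). With replicate number as a block, Mut-2 against Mut-1 had 68 calls over all genes in place of 43, and still 0 of the 56.

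The median log2 fold change of the 56 genes was -0.02 in Mut-1 against WT-1 (27 above 0), where all genes had 0.02. It was 0.00 in Mut-2 against Mut-1 (29 above 0), beside 0.02 over all genes, and -0.08 in Mut-2 against WT-1 (20 above 0), beside 0.00. The other chromosome 8 genes had -0.03, 0.02 and -0.05. Single genes ran from -0.44 to 0.61, from -0.92 to 0.30 and from -0.80 to 0.92 in the 3 pairs, with a median SE of 0.16. A miss at this threshold does not show that the lines are alike.

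Upf1 was at -0.36 (SE 0.12, edgeR adjusted p = 0.302) in Mut-1 against WT-1 and at -0.37 (SE 0.12, edgeR adjusted p = 0.221) in Mut-2 against WT-1. Urb2 was at -0.44 (SE 0.16, edgeR adjusted p = 0.378) and -0.43 (SE 0.16, edgeR adjusted p = 0.297) in the same pairs. All 7 RNA processing genes had a log2 fold change below 0 in both of these pairs, with medians of -0.21 and -0.22, and 0 of them passed the test. Both pairs share WT-1, and this direction was common elsewhere: of the 124 partner genes on other chromosomes 96 were below 0 in Mut-1 against WT-1 and 93 in Mut-2 against WT-1, with medians of -0.15 and -0.11, beside 0.02 and 0.00 over all genes. All 24 feeder markers were above 0 in both pairs, with medians of 0.48 and 0.76. Once the covariate for feeder share was in the fit, Upf1 was at -0.32 and -0.30, and Ankrd10 at -0.03 and -0.06 in place of -0.12 and -0.20. The feeder shares of WT-1 and Mut-2 do not overlap, so in that pair share and line are not cleanly separated. Of the cell cycle group, Tfdp1 was at -0.42 (SE 0.18, edgeR adjusted p = 0.385) in Mut-2 against WT-1. Insr was at 0.44 in that pair (SE 0.19, edgeR adjusted p = 0.367).

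Of the 56 genes, Mt1 and Sall1 had the lowest log2 fold changes in Mut-2 against Mut-1, and neither passed the test. Mt1 had a log2 fold change of -0.92 (SE 0.30, edgeR adjusted p = 0.492) and Sall1 of -0.50 (SE 0.21, edgeR adjusted p = 0.694). For Mt1, 2 of the 3 Mut-2 libraries were below every other library, and Mut-1 replicate 1 at 243 CPM lay among the Mut-2 values. Mmp2 and Csgalnact1 had the highest log2 fold changes in Mut-2 against WT-1, at 0.82 (SE 0.33, edgeR adjusted p = 0.331) and 0.92 (SE 0.38, edgeR adjusted p = 0.354). The 24 feeder markers summed to 4550 to 5921 CPM in WT-1 and 6586 to 9970 CPM in Mut-2, with 0 markers absent from all libraries. With the feeder share as a covariate these log2 fold changes were 0.16 (SE 0.19) for Mmp2 and 0.35 (SE 0.35) for Csgalnact1. The share ran from 0.452% to 0.591% in WT-1 and from 0.624% to 0.987% in Mut-2. As these ranges do not overlap, the covariate cannot cleanly separate share from line in this pair. Leaving out Mut-1 replicate 1 and Mut-2 replicates 1 and 2, so that only replicate 3 of Mut-2 remained, gave 0.48 and 0.75. Without the filter on low counts, the edgeR test called Mt1 in both pairs with Mut-2, and Mmp2 and Csgalnact1 in Mut-2 against WT-1. Those calls came with smaller SEs at similar log2 fold changes.

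Among the 818 chromosome 8 genes tested, 1 gene was called in the pairs without WT-2, and it is not among the 58. Nkx6.3, a homeobox gene, had CPM values of 5.33, 6.45 and 8.18 in WT-1, 7.61, 8.56 and 12.4 in WT-2, 15.4, 15.04 and 19.3 in Mut-1, and 13.7, 11.8 and 12.3 in Mut-2. It rose in Mut-1 against WT-1 by a log2 fold change of 1.32 (SE 0.22, edgeR adjusted p = 0.0248). It was picked out after its value was seen.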

How the data were processed

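RNA-seq was done on 12 libraries of 4 lines. The deposited values are whole-number read counts per gene that the authors did not normalize. The genome build is GRCm38, and HISAT2 2.1.0, HTSeq 0.6.0, Bowtie2 2.2.3 and bcl2fastq are listed without their roles, per the submitters' processing notes. Which annotation and strand setting were used is not given in the sources used here, so reads of genes that overlap, on 1 strand or on both, may be mixed or left uncounted. Of the 58 genes, 40 share no exon base with another gene of GENCODE M21. Jund shares 52.6% and Mt2 73.5% with genes on the opposite strand, and Galnt2 shares 90.0%, mostly with a gene on its own strand.

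Counts were analysed with edgeR 4.0.16 in R 4.3.3 (TMM, filterByExpr, quasi-likelihood test, Benjamini-Hochberg adjustment over all 16533 genes tested, threshold 0.05), with 1 fit of the 4 lines. DESeq2 1.42.0 and limma 3.58.1 were alternatives. The fit was also run on simulated counts of independent libraries with 1 fixed spread. The libraries here are not independent in that way, so no conclusion about their p-values is drawn from that run. Positions came from GENCODE M21, which placed 27405 symbols. For shifts by library or position, log2(CPM + 0.5) of genes of at least 5 CPM was centred per gene on the mean of the 4 line means. Intervals of 95% cover the spread between libraries only.

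The genes and lists were chosen with earlier results of these data known. Values per library were given by rule for the 3 genes of highest mean CPM in each role and for the 3 highest and 3 lowest log2 fold changes in WT-2. Cmip, Fto, Zfhx3, Ints10 and Abhd13 were added after their values were seen, because their WT-2 libraries did not overlap the others. Same-number libraries deviated together, with each correlation over 0.1, in 4 of the 6 pairs of lines, Mut-1 with Mut-2 (0.45, 0.17 and 0.28) among them, and not in WT-1 with Mut-1 or WT-1 with Mut-2. The labels name no source of this pairing.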

Additional observations from a re-analysis of the deposited data

How the results depend on the processing

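The median log2 fold change of the 56 genes in WT-2 stayed between 0.19 and 0.24 under all alternatives, those that leave out 1 library included (0.20 to 0.24). The median of all chromosome 8 genes tested was 0.19 to 0.22 when 1 library was left out. The number of the 56 genes with all WT-2 libraries above the others was 8 to 22 when 1 library was left out, and 1.69% to 4.14% of all genes had that order; the percentage was 0.989% without the filter and 2.75% without Mut-1 replicate 1 and Mut-2 replicates 1 and 2 (highest in feeder share), a setting chosen after seeing the data. No such count was made for limma-voom, the replicate block or the feeder covariate, which do not change the values counted.

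Calls over all genes depended more on the setting; except where the setting itself shows it, the cause was not tested. For Mut-1 against WT-1 (54 calls) there were 543 without the filter, 215 with DESeq2, 100 with the replicate block, 15 with WT-1 replicates 1 and 2 summed, 34 with a log2 fold change of at least 1, and 16 to 447 without 1 library, the most without WT-1 replicate 3. For Mut-2 against Mut-1 (43 calls) there were 270 without the filter, 126 with DESeq2, 68 with the replicate block, 20 with the fold threshold, 3 to 70 without 1 library, and 1 without those 3 libraries. For Mut-2 against WT-1 (48 calls) there were 632 without the filter, 278 with DESeq2, 28 with the feeder covariate, 8 with the summed replicates, 30 with the fold threshold, 7 to 82 without 1 library, and 0 without those 3.

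The 56 genes had 0 calls in each pair under all settings, with these exceptions. Without the filter there was 1 call in Mut-2 against Mut-1 (Mt1, log2 fold change -0.92, SE 0.16, edgeR adjusted p = 3.49e-06). Without it there were 3 in Mut-2 against WT-1: Mt1 (-0.80, SE 0.16, edgeR adjusted p = 8.56e-05), Mmp2 (0.81, SE 0.17, edgeR adjusted p = 0.00027) and Csgalnact1 (0.91, SE 0.27, edgeR adjusted p = 0.0436). These log2 fold changes were near those of the main fit, and the SEs were smaller. Without WT-1 replicate 3 there was 1 in Mut-1 against WT-1 (Ing1, -0.66, edgeR adjusted p = 0.0401), so that the range without 1 library was 0 to 1 there and 0 to 0 in the other pairs. The replicate block changed no call among the 56 genes. Of 1701 values of single genes in the pairs without WT-2, 1676 kept their side of the threshold with no change of sign larger than the SE, 21 changed sign by more than the SE without a call, and 4 newly passed it. Of 567 WT-2 values of single genes, 13 moved by more than the SE, in Mmp2, Csgalnact1, Ctcf, Taf5l, Cbfb, Sall1, Wwox, Arglu1 and E2f4, and of these Mmp2 changed sign, to 0.24 with the feeder covariate and 0.18 without those 3 libraries. A lone library left in Mut-2 is taken to vary like those of the other lines.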
